A study of Mus musculus with 16 samples.

Results

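The nuclear subunits of respiratory complexes II to V were examined in primary cultured cardiomyocytes of C57BL/6 mice. They were the 44 genes, of 11631 in the expression table, whose symbol is Sdha, Sdhb, Sdhc or Sdhd or begins with Uqcr, with Cox4 to Cox8 or with Atp5. Of these, 4 belong to complex II, 8 to complex III, 16 to complex IV and 16 to complex V. Cells came from control mice aged about 8 weeks or from diabetic mice (DM-HFD) that had been fed a high fat diet for 26 weeks and given streptozotocin, a beta cell toxin, after 12 weeks of the diet. Each kind of cell was exposed for 24 h to linagliptin, an inhibitor of dipeptidyl peptidase-4, at 9 nmol/L or to vehicle (0.1% DMSO), which gave control vehicle (n = 5), control linagliptin (n = 5), DM-HFD vehicle (n = 3) and DM-HFD linagliptin (n = 3), 16 libraries in all. Age, diet, streptozotocin and any difference in cell preparation go together with the kind of mouse and cannot be told apart. The sources used here do not give the sex of the animals behind each library or say which libraries came from separate animals, so p-values measure the spread between these libraries, which may be technical in part.

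Complex II (succinate dehydrogenase) takes electrons from succinate, complex III passes them from ubiquinol to cytochrome c, and complex IV (cytochrome c oxidase) hands them to oxygen. Complexes III and IV pump protons across the inner mitochondrial membrane, and complex V (ATP synthase) uses the returning protons to make ATP. The heart draws most of its ATP from this system, and complex IV carries muscle isoforms of several small subunits there. All subunits of complex II are encoded in the nucleus, whereas complexes III, IV and V also hold subunits encoded by mitochondrial DNA. Of the genes chosen by symbol, Atp5s (Dmac2l in RefSeq) and Cox7a2l, which takes part in joining complexes III and IV into supercomplexes, are not core subunits of the complex they are named after.

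Promoters are shown for subunits that turn up in the comparisons below: Atp5e and Uqcrh were higher in DM-HFD cells with and without linagliptin, Cox6a1 was higher with linagliptin, Sdha was lower with vehicle, and Cox8a and Cox8b are the ubiquitous and the muscle isoform of 1 subunit. Each sequence is from RefSeq (GRCm38.p6), 250 bases before to 50 after the start of the gene, read along the minus strand on which all of these genes lie: chr2:174464052-174464351 (Atp5e), chr4:116075021-116075320 (Uqcrh), chr5:115348909-115349208 (Cox6a1), chr13:74350191-74350490 (Sdha), chr19:7217567-7217866 (Cox8a) and chr7:140900397-140900696 (Cox8b). Capitals mark matches, on either strand, to short motifs of factors known to act on respiratory genes and of common promoter boxes, each spelled out after the sequences. Matches of a motif that overlap each other were counted separately.
Atp5e: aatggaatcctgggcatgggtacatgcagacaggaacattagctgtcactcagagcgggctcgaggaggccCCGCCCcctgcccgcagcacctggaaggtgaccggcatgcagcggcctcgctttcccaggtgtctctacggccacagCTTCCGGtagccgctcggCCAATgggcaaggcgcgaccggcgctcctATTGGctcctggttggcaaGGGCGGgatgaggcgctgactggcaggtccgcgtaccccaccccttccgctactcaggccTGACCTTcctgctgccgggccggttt
Uqcrh: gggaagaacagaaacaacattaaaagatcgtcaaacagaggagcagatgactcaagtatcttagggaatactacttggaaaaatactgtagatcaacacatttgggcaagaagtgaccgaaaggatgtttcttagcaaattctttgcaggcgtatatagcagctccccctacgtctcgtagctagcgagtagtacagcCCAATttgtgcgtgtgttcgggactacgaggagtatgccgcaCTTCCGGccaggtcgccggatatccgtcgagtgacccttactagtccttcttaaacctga
Cox6a1: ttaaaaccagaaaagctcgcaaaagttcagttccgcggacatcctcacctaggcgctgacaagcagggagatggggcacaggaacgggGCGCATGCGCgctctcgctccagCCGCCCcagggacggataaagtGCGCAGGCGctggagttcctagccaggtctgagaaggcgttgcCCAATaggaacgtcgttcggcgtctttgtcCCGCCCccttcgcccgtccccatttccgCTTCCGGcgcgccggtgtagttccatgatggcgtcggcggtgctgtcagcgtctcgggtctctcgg
Sdha: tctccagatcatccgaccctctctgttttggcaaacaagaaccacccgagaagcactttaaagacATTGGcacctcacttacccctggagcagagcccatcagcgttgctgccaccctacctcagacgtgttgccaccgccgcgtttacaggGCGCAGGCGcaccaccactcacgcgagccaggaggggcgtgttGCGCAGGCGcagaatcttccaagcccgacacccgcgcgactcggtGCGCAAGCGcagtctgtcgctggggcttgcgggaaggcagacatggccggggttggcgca
Cox8a: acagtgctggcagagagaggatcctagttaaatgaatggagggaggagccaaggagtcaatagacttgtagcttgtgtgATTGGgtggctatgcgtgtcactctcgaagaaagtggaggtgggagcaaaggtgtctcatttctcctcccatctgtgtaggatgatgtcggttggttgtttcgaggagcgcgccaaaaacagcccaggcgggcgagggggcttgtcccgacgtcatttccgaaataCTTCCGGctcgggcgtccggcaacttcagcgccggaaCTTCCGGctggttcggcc
Cox8b: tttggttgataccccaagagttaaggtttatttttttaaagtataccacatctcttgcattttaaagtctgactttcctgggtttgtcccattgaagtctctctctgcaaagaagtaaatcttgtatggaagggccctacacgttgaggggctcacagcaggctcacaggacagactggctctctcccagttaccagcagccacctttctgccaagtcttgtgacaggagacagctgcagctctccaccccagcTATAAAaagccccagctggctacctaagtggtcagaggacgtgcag
In these windows, Sdha held 3 matches to the NRF1 letters and Cox6a1 held 3, of which a pair overlap. Cox8a held 2 matches to the ETS letters, while Cox8b held TATAAA and none of the other letters. A RefSeq promoter was matched by symbol for 35 of the 44 subunits and for 9195 genes of the table. GCGCANGCG, part of the motif of the nuclear respiratory factor NRF1, was in 31.4% of the 35 promoters and in 14.5% of all 9195. AAGGTCA, bound by estrogen-related receptors, was in 14.3% of the 35 promoters and in 2.94% of all. CCGGAAG, bound by ETS factors such as the GA-binding protein, was in 31.4% and 19.1%. AAGATGGC, from the motif of the factor YY1, was in 5.71% and 4.88%. GGGCGG, bound by the factor SP1, was in 37.1% against 66.1%. The core promoter box TATAAA was in 5.71% of the 35 promoters against 7.20% of all. The letters CCAAT, bound by the factor NF-Y, were in 54.3% against 38.9%. Median GC content was 56.3% in the 35 promoters and 61.0% in all. A match describes letters in this window only, and no difference in these shares was tested.

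In control vehicle cells, Cox6a2, the muscle isoform of complex IV subunit 6a, had the highest value of the 44 in the gene table. It was 1341, 1394, 1327, 1370.3 and 1643 FPKM (fragments per kilobase of transcript, scaled to the mapped fragments of the library) in the 5 libraries, above every library of the next subunit. Atp5a1 and Atp5b, the alpha and beta subunits that form the catalytic head of ATP synthase, followed at 719 ± 122 and 709 ± 105 FPKM (SD, n = 5), with Cox6b1 at 714 ± 94.2, Cox8b at 707 ± 123 and Cox7a1 at 678 ± 85.3. The ranges of these 5 overlapped each other in order, as did those of 39 of the 43 neighbouring pairs. At the bottom of the order were Atp5s at 10.8 ± 0.425, Cox4i2, an isoform of subunit 4 known from the lung, at 2.31 ± 1.03, and Cox6b2, an isoform known from the testis, at 1.00 ± 0.249 FPKM. The order depends on how transcripts were combined into a gene. Summed over a gene's transcripts, FPKM exceeded the gene value by over 1.5 times in 25 of the 44 subunits, by 11.6 times in Atp5l, 6.93 times in Atp5g1 and 5.93 times in Cox6c. On the summed scale Atp5b was the highest at 1477 ± 159.8 FPKM (SD, n = 5) and Cox6a2 next at 1415 ± 130.2, with overlapping ranges. Fold changes below use the gene values. The relation of sum to gene value varied between libraries, so this choice can also move fold changes. For Atp5h, control vehicle replicates 1 and 2 had gene values of 450 and 483 FPKM and sums of 933 and 1303.

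Together the 44 subunits took 6.09% to 6.85% of the FPKM of nuclear genes in control vehicle and 6.01% to 6.51% in control linagliptin libraries. In DM-HFD vehicle libraries the share was 7.33% to 7.55%, above all 10 control libraries, and in DM-HFD linagliptin libraries it spanned 6.10% to 7.68%, overlapping them. Complex IV held the largest part, 2.80% ± 0.222 (SD, n = 5) in control vehicle and 3.35% ± 0.0635 (SD, n = 3) in DM-HFD vehicle cells, while complex II took 0.423% ± 0.0412 and 0.414% ± 0.0480. As a share of all FPKM, with mitochondrially encoded genes counted, the 44 subunits took 4.09% ± 0.243 (SD, n = 5) in control vehicle and 3.87% ± 0.359 (SD, n = 3) in DM-HFD vehicle cells, and the groups overlapped. Mitochondrially encoded genes themselves took 34.7% to 37.6% of FPKM in control vehicle and 44.1% to 52.2% in DM-HFD vehicle libraries. The direction of the share thus depended on the denominator.

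Several libraries stood apart. Control vehicle replicate 5 had the highest value of its group for 30 of the 44 subunits, and DM-HFD linagliptin replicate 3 for 28 of 44. DM-HFD linagliptin replicate 3 also had the lowest share of mitochondrially encoded FPKM of all 16 libraries, 26.5%. In control linagliptin replicate 3, 13 of the 16 subunits with a main transcript of at least 1000 bases lay above the mean of the group, but 11 of the 28 shorter ones did. In DM-HFD vehicle replicate 2 the counts were 15 of 16 and 14 of 28, and in control vehicle replicate 4 they were 12 of 16 and 8 of 28. Within groups, the median coefficient of variation over the 44 subunits was 14.1% in control vehicle, 8.05% in control linagliptin, 9.28% in DM-HFD vehicle and 19.6% in DM-HFD linagliptin cells.

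**Figure D1:**
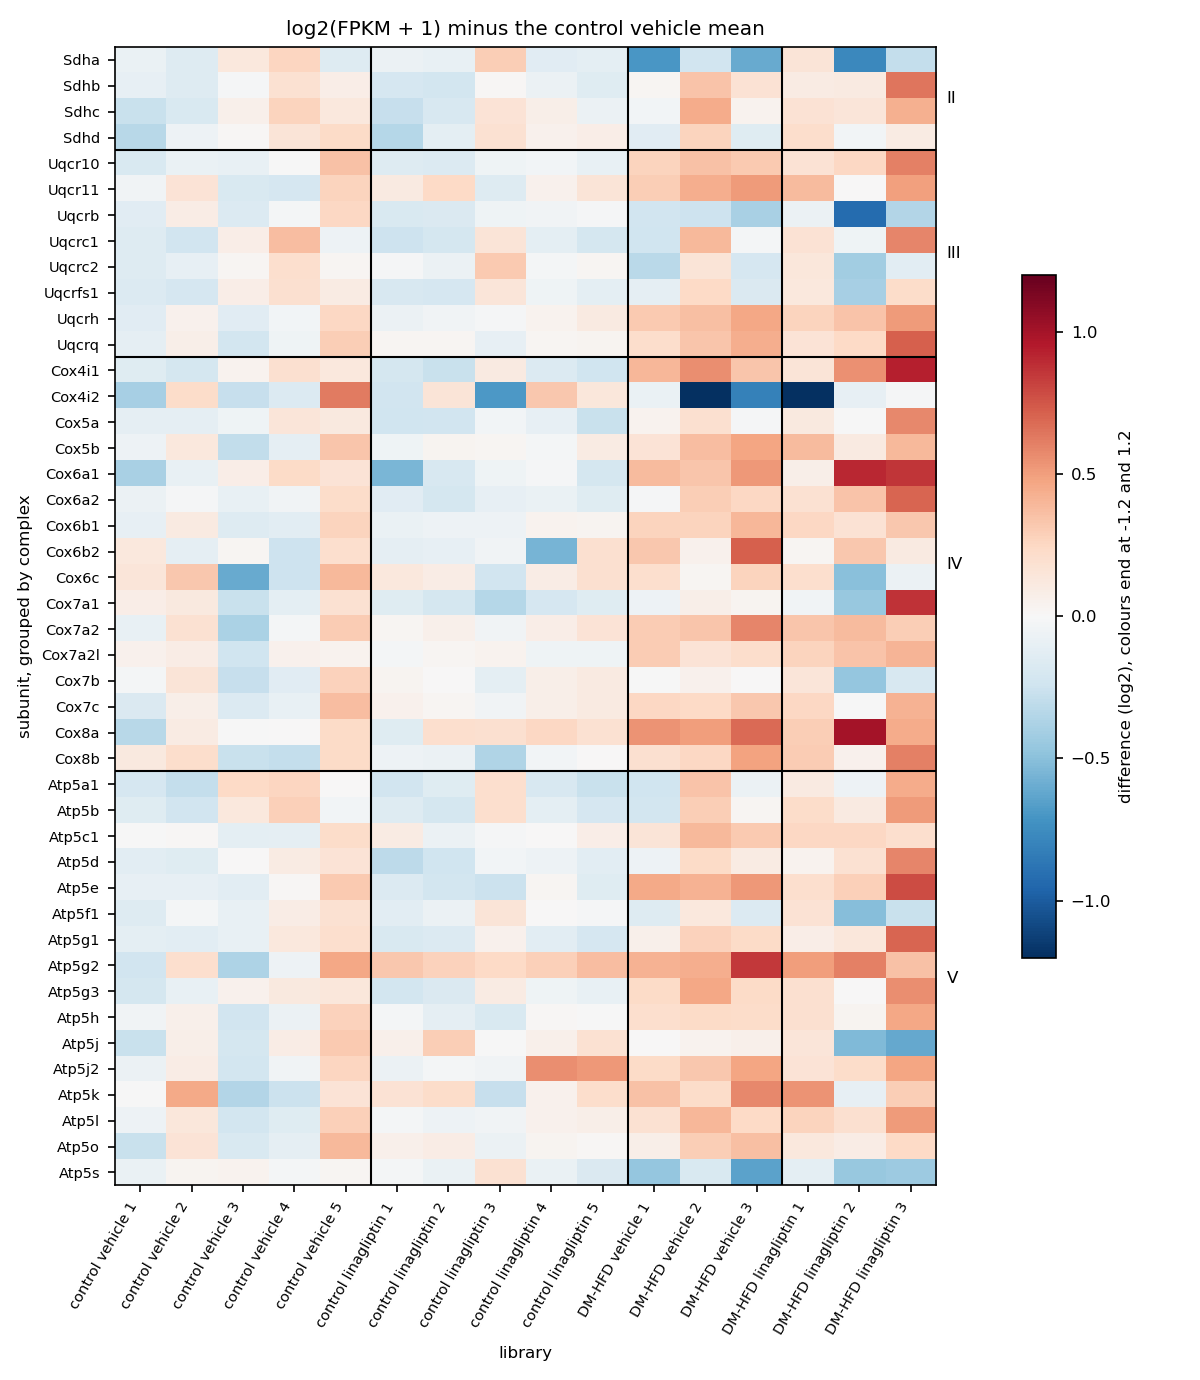
Each cell of the map is log2(FPKM + 1) of a subunit (rows, grouped by complex) in 1 of 16 libraries (columns), minus the mean of the 5 control vehicle libraries, with red for higher and blue for lower. Sdha, Atp5s and Uqcrb are blue in all DM-HFD vehicle columns, where most rows are red, and Cox4i2 is blue in DM-HFD vehicle replicates 2 and 3. DM-HFD linagliptin replicate 3 is the reddest column.

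With vehicle, DM-HFD cells were compared with control cells, and 6 subunits rose (Cox8a, Atp5e, Cox4i1, Uqcrh, Uqcr11 and Atp5g2), 2 fell (Sdha and Atp5s) and 36 did not pass an adjusted p of 0.05 (limma on log2(FPKM + 1), Benjamini-Hochberg over 11359 genes). Over all genes tested, 2.94% were called higher and 28.1% lower. Log2 fold changes lay above 0 for 36 of the 44 subunits as fitted, for 20 with TPM and for 11 with trends over length and GC content removed. The median was 0.22 as fitted, whereas the median of all genes was -0.20. By complex the median was 0.07 for complex II, 0.18 for complex III, 0.29 for complex IV and 0.23 for complex V. Every DM-HFD library lay above every control library for 8 of 44 subunits and below for 3, against 3.39% and 30% of all genes. By the criteria used in the study (change of 1.5 times or more, unadjusted p up to 0.05), 0 subunits were higher and 1 was lower, against 1.84% and 18.2% of all genes. That subunit was Cox4i2, whose FPKM was 1.41, 2.71, 1.64, 1.84 and 3.92 in control and 2.02, 0.147 and 0.823 in DM-HFD libraries, overlapping (log2 fold change -0.79 with an SE of 0.31, limma adjusted p = 0.0779). In bulk RNA, fewer cells of a type and less RNA per cell cannot be told apart.

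Of complex II, Sdha encodes the flavoprotein that oxidises succinate and lies on chromosome 13, 74322254 to 74350280 of GRCm38. Its FPKM was 259, 246, 298, 328 and 245 in control vehicle and 168, 233 and 179 in DM-HFD vehicle libraries. Every DM-HFD library was below every control library, and Sdha fell (log2 fold change -0.51 with an SE of 0.15, limma adjusted p = 0.0246). Its partner Sdhb, the iron-sulphur subunit, was 261 ± 24.4 FPKM (SD, n = 5) in control and 297 ± 33.1 (SD, n = 3) in DM-HFD cells and did not pass the test (log2 fold change 0.18). The membrane anchors Sdhc and Sdhd had log2 fold changes of 0.15 and -0.0047, also not past it. A ratio inside a library does not depend on how libraries are scaled, but it keeps trends over transcript length and GC content, described below. The main transcript of Sdha has 2900 bases and 48.5% GC, and that of Sdhb 1142 bases and 54.9%. The ratio of Sdha to Sdhb was 0.890 to 1.16 in control vehicle and 1.00 to 1.28 in control linagliptin, against 0.609 to 0.703 in DM-HFD vehicle libraries. In DM-HFD linagliptin libraries it was 0.551 to 1.09, with replicate 1 inside the control range. The ratio of Sdha to Sdhb was chosen after the values were seen and was not tested.

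In complex III, Uqcrh, the hinge protein that sits beside cytochrome c1, was 278, 316, 279, 299 and 363 FPKM in control vehicle and 381, 392 and 423 in DM-HFD vehicle libraries (chromosome 4, 116066965 to 116075071). The groups did not overlap, and it rose (log2 fold change 0.38 with an SE of 0.12, limma adjusted p = 0.0349). Uqcr11, a small accessory subunit (chromosome 10, 80402997 to 80406830), was 339.7, 392, 309, 304 and 422 and 431, 475 and 501 FPKM. It rose as well (log2 fold change 0.42 with an SE of 0.14, limma adjusted p = 0.0420), with the lowest DM-HFD library just above the highest control library. Uqcrb, which takes part in ubiquinone binding, went the other way: it was 437, 511, 429, 473 and 573 and 410.3, 404 and 367 FPKM, without overlap, and did not pass the test (log2 fold change -0.29 with an SE of 0.12, limma adjusted p = 0.102). The ratio of Uqcrb to Uqcrh, not tested and chosen after the values were seen, was 1.54 to 1.62 in control vehicle, 1.43 to 1.53 in control linagliptin, 0.870 to 1.08 in DM-HFD vehicle and 0.655 to 1.25 in DM-HFD linagliptin libraries. GC content, over which fold changes also had a trend, was 42.2% for Uqcrb and 49.9% for Uqcrh. The core proteins Uqcrc1 and Uqcrc2 and the Rieske iron-sulphur protein Uqcrfs1 had log2 fold changes of 0.04, -0.12 and -0.02, none past the test.

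In complex IV, Cox8a, the ubiquitous isoform of subunit 8 (chromosome 19, 7215158 to 7217616), had the lowest adjusted p of the 44. Its FPKM was 96.2, 130.0, 121, 122 and 143 in control vehicle and 177, 173 and 195 in DM-HFD vehicle libraries. All DM-HFD libraries lay above all control libraries (log2 fold change 0.58 with an SE of 0.14, limma adjusted p = 0.00948). Cox4i1, the ubiquitous isoform of subunit 4, which surrounds the catalytic core (chromosome 8, 120668222 to 120674207), was 383, 367, 438, 484 and 462 and 561, 626 and 535 FPKM. It rose without overlap (log2 fold change 0.43 with an SE of 0.13, limma adjusted p = 0.0265). In complex IV 15 of 16 lay above 0. Of its other 14 subunits, 13 had log2 fold changes between 0.01 and 0.41 and Cox4i2 was below 0, and none passed the test. Cox6a1, the ubiquitous isoform of subunit 6a, came nearest, without overlap between the groups (log2 fold change 0.41 with an SE of 0.15, limma adjusted p = 0.0594).

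In complex V, Atp5e, the epsilon subunit of the central stalk (chromosome 2, 174461072 to 174464105), was 144, 144, 141, 156 and 192 FPKM in control vehicle and 212, 207 and 222 in DM-HFD vehicle libraries. It rose without overlap (log2 fold change 0.47 with an SE of 0.13, limma adjusted p = 0.0178). Atp5g2 encodes subunit c of the proton-conducting ring, a protein that Atp5g1 and Atp5g3 also encode (chromosome 15, 102662864 to 102672352). Its FPKM was 62.5, 84.4, 56.3, 70.3 and 101 and 98.1, 99.5 and 132, so that control replicate 5 lay among the DM-HFD libraries, and it passed the test narrowly (log2 fold change 0.56 with an SE of 0.20, limma adjusted p = 0.0499). Atp5s fell from 10.8 ± 0.425 (SD, n = 5) in control to 7.85 ± 1.46 FPKM (SD, n = 3) in DM-HFD libraries, without overlap (log2 fold change -0.43 with an SE of 0.12, limma adjusted p = 0.0223) (chromosome 12, 69724950 to 69744660). The large subunits of the catalytic head did not pass: Atp5a1 had a log2 fold change of 0.01 (standard error 0.18) and Atp5b of 0.03 (standard error 0.16).

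**Figure D2:**
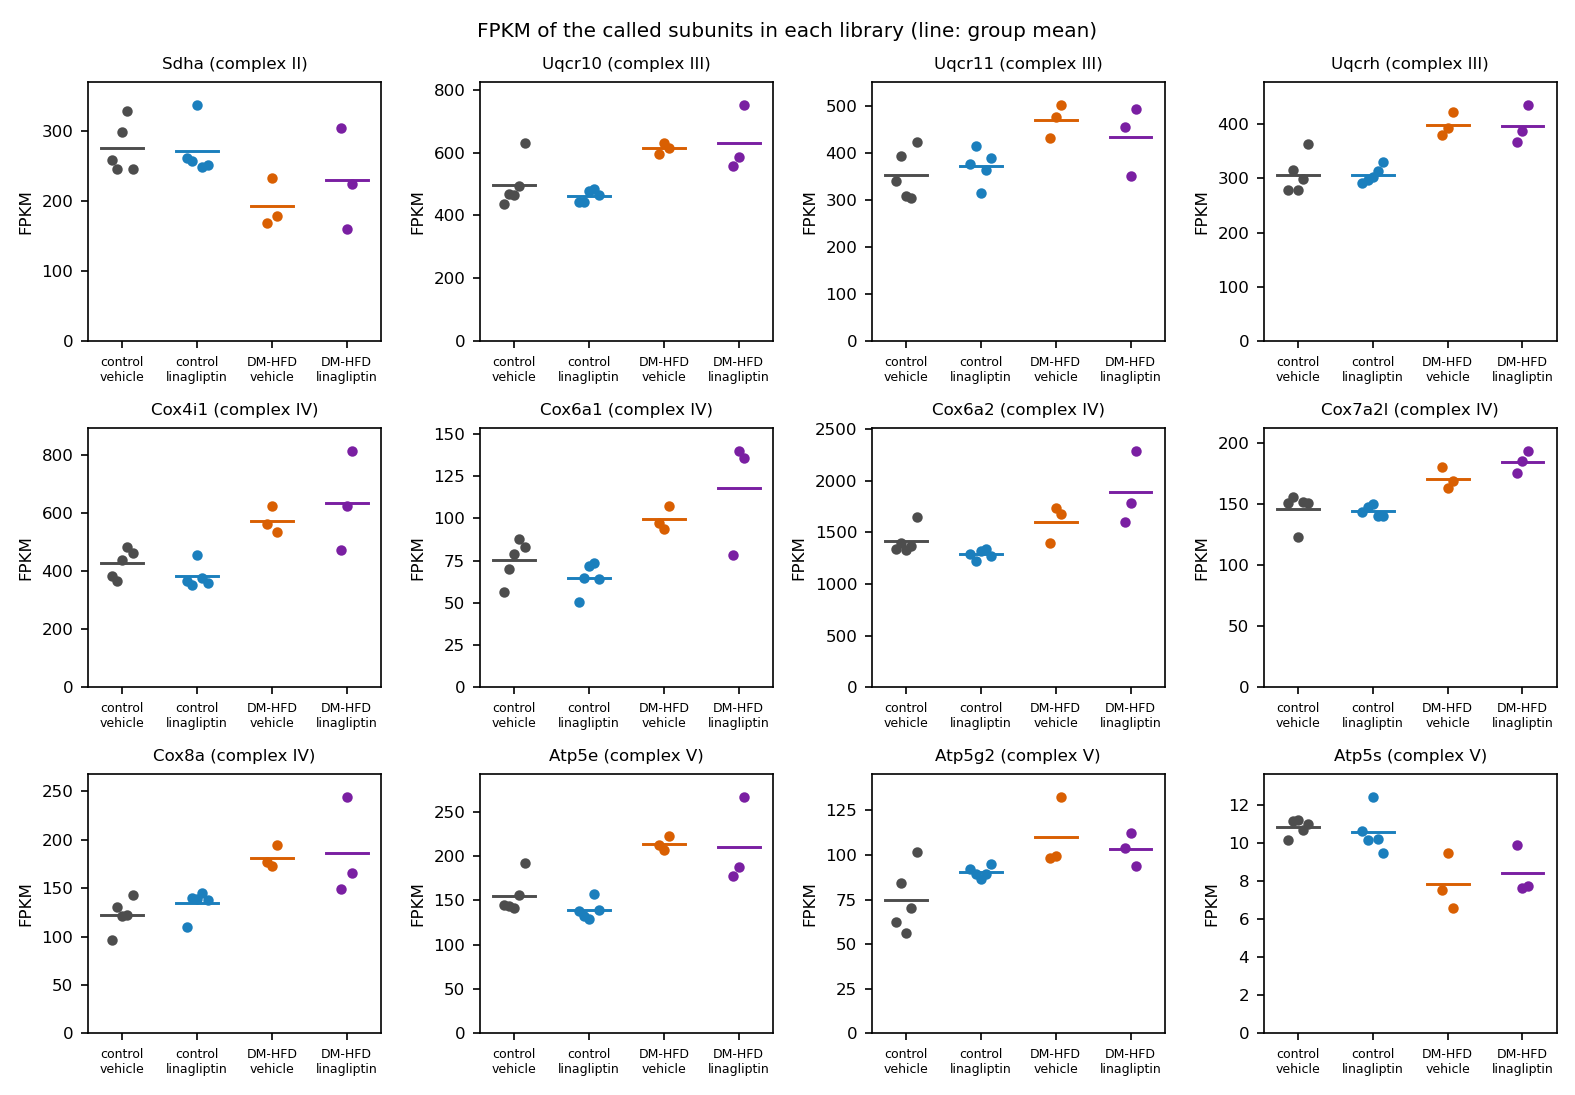
FPKM (linear axis from 0) of the 12 subunits called in a comparison of DM-HFD with control cells, with 1 point per library and a line at the mean of each of 4 groups. DM-HFD vehicle points lie below all control vehicle points for Sdha and Atp5s and above them for Cox8a, Atp5e, Cox4i1, Uqcrh and Uqcr11, while DM-HFD linagliptin points spread widely for Cox6a1 and Cox8a.

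These calls depended on scaling and on gene properties. Without control vehicle replicate 5 the count of called subunits was 16 in place of 8, and without DM-HFD vehicle replicate 3 it was 2. Of all genes, 469 were called higher and 3177 lower of 11374 in the former fit. In the latter fit these were 107 and 2390 of 11322. Cox8a passed whichever of the 8 libraries was left out, and Atp5e passed except without DM-HFD vehicle replicate 3. Sdha did not pass without control vehicle replicate 3, DM-HFD vehicle replicate 1 or DM-HFD vehicle replicate 3, with log2 fold changes of -0.48, -0.42 and -0.46. Cox4i1 and Atp5s each passed in 4 of the 8 fits. Uqcrh and Atp5g2 each passed in 1 of these 8 fits, and Uqcr11 in 2. Scaling moved the median of all genes from -0.20 to -0.47 with TPM, 0.01 with median-of-ratios factors and 0.03 with quantiles, and the median of the 44 subunits to -0.04, 0.51 and 0.10. With TPM, 0 subunits were called higher and 4 lower, while 121 of all 11359 genes were called higher and 5317 lower. With median-of-ratios factors 28 subunits were called higher and 0 lower, and of all genes 1541 higher and 1760 lower. Relative to the median of all genes, that of the subunits was higher by 0.42 as fitted, by 0.43 with TPM and by 0.50 with median-of-ratios factors, but by 0.07 with quantiles. The model of Ballgown, rebuilt here as group plus a library covariate with an ordinary F test, gave the subunits a median of -0.16. It gave all genes a median of 0.02, so that the subunits lay below all genes, with a difference of -0.18. This model called 0 subunits, but it called only 1 of all 11359 genes.

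Respiratory subunits are short, and fold changes followed length. The median length of the main transcript was 729 bases for the 44 subunits and 2839 bases for 11229 genes with a length. Across these genes, which are not independent replicates, Spearman's rho of the log2 fold change was -0.48 with transcript length and 0.50 with GC content, and within the 44 subunits it was -0.51 and 0.45. All 296 genes between 500 and 750 bases had a median log2 fold change of 0.23, and the 16 subunits among them 0.29. Between 1500 and 2000 bases the median was -0.04 for 1375 genes and -0.02 for the 6 subunits. When trends over length and GC content were removed from each library, the median of the subunits was -0.13 and that of all genes -0.21. Then 0 subunits were called higher and 5 lower, while of all 11229 genes 181 were called higher and 2784 lower, a larger share than among the subunits. Log2 fold changes were then -0.49 for Sdha, -0.34 for Uqcrb and 0.08 for Cox8a, whereas Atp5e (-0.05), Cox4i1 (-0.03) and Uqcr11 (-0.09) turned to the other side of 0. Sdha, at 2900 bases, stayed below 0 in all 11 other settings and was called in 8 of them; median-of-ratios scaling and the model of Ballgown were among those that did not call it.

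**Figure D3:**
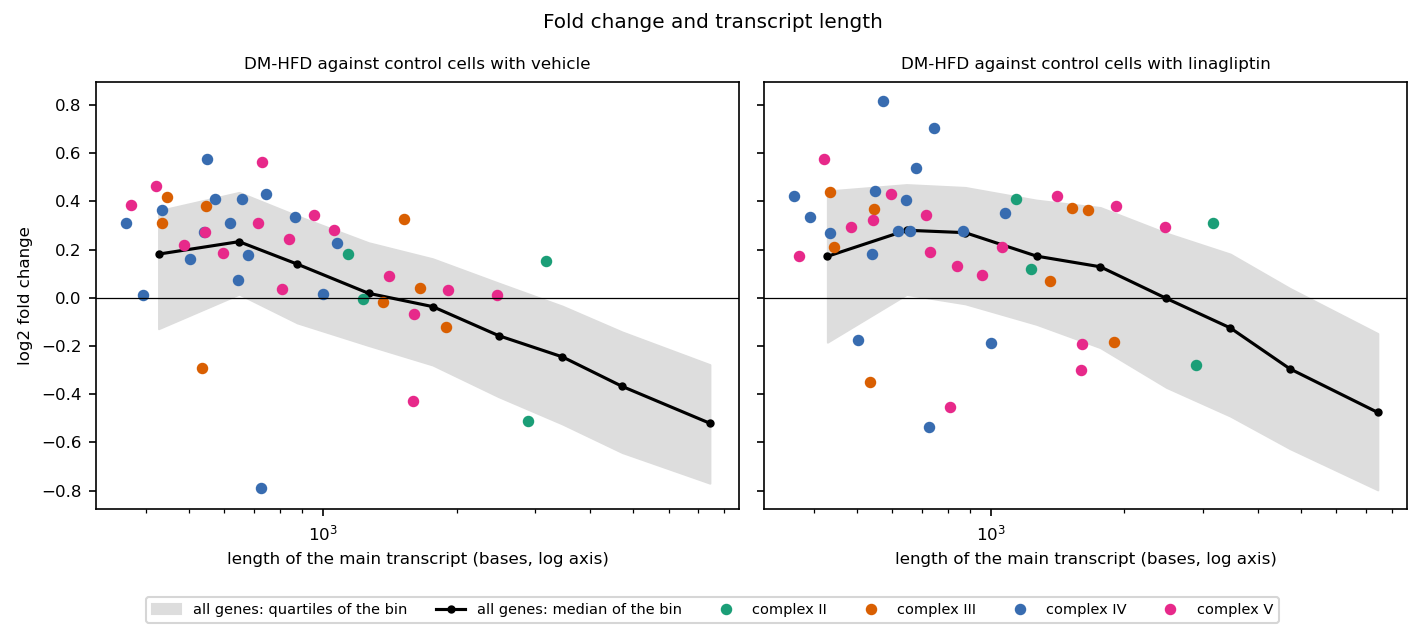
Log2 fold change (DM-HFD over control) of the 44 subunits (points, coloured by complex) against the length of their main transcript in bases (log axis), with vehicle on the left and linagliptin on the right. The black line and grey band are the median and quartiles of all genes in bins of length, and most subunits of 500 to 750 bases lie inside the band.

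In linagliptin-exposed cells, 7 subunits rose in DM-HFD against control cells (Cox6a2, Cox4i1, Cox6a1, Atp5e, Uqcr10, Cox7a2l and Uqcrh), 0 fell and 37 did not pass the test. Of the 11555 genes tested, 5.02% were called higher and 21.8% lower. Log2 fold changes were above 0 for 35 of 44 subunits, with a median of 0.28 against -0.06 for all genes. For 20 subunits every DM-HFD library lay above every control library and for 0 below, against 6.25% and 21.8% of all genes. By the criteria of the study 2 subunits were higher, Cox4i1 and Cox6a1, and 0 lower, against 3.82% and 18% of all genes.

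Cox6a2 (chromosome 7, 128205435 to 128206387) was 1287, 1222, 1320.4, 1334 and 1273 FPKM in control linagliptin and 1599, 1786 and 2285 in DM-HFD linagliptin libraries (log2 fold change 0.54 with an SE of 0.14, limma adjusted p = 0.0203). Cox6a1 (chromosome 5, 115345642 to 115348981), its ubiquitous counterpart, was 50.4, 64.8, 71.6, 73.5 and 64.0 and 78.1, 139.8 and 135 FPKM (log2 fold change 0.82 with an SE of 0.21, limma adjusted p = 0.0212). Both isoforms rose without overlap, although replicate 1 of the DM-HFD libraries exceeded the highest control library of Cox6a1 by little. Cox4i1 was 367, 351, 457, 378 and 360.2 and 473, 623 and 814 FPKM (log2 fold change 0.70 with an SE of 0.18, limma adjusted p = 0.0205). Atp5e was 138, 133, 129, 157 and 139 and 177, 188 and 266 FPKM (log2 fold change 0.57 with an SE of 0.16, limma adjusted p = 0.0251). The small complex III subunit Uqcr10 (chromosome 11, 4701973 to 4704342) was 462 ± 19.1 FPKM (SD, n = 5) in control and 631 ± 105 (SD, n = 3) in DM-HFD cells (log2 fold change 0.44 with an SE of 0.13, limma adjusted p = 0.0349). Cox7a2l (chromosome 17, 83501919 to 83514333) and Uqcrh rose by 0.35 and 0.37 on the log2 scale, with adjusted p-values of 0.0374 and 0.0415 in limma. Sdha, at 304, 159 and 224 FPKM in DM-HFD linagliptin libraries, overlapped control linagliptin cells (log2 fold change -0.28 with an SE of 0.20, limma adjusted p = 0.310).

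The 7 calls depended on single libraries. Without DM-HFD linagliptin replicate 3, or without control linagliptin replicate 2, 0 subunits were called, and without DM-HFD linagliptin replicate 1 the count was 14 higher and 6 lower. The calls over all genes moved with them, to 5 higher and 90 lower of 11536 without DM-HFD linagliptin replicate 3, to 119 and 1452 of 11528 without control linagliptin replicate 2, and to 2357 and 3432 of 11560 without DM-HFD linagliptin replicate 1. The median of the subunits was 0.17 with TPM, 0.41 with median-of-ratios factors, 0.02 with quantiles and -0.05 without trends over length and GC content, and that of all genes -0.19, 0.02, 0.06 and -0.11. Without trends 0 subunits were called higher and 2 lower, and of all 11407 genes 93 and 996. Cox6a1 kept its call in 8 of the 11 other settings. Both comparisons of DM-HFD with control cells use different libraries on each side, but the same kinds of mice.

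**Figure D4:**
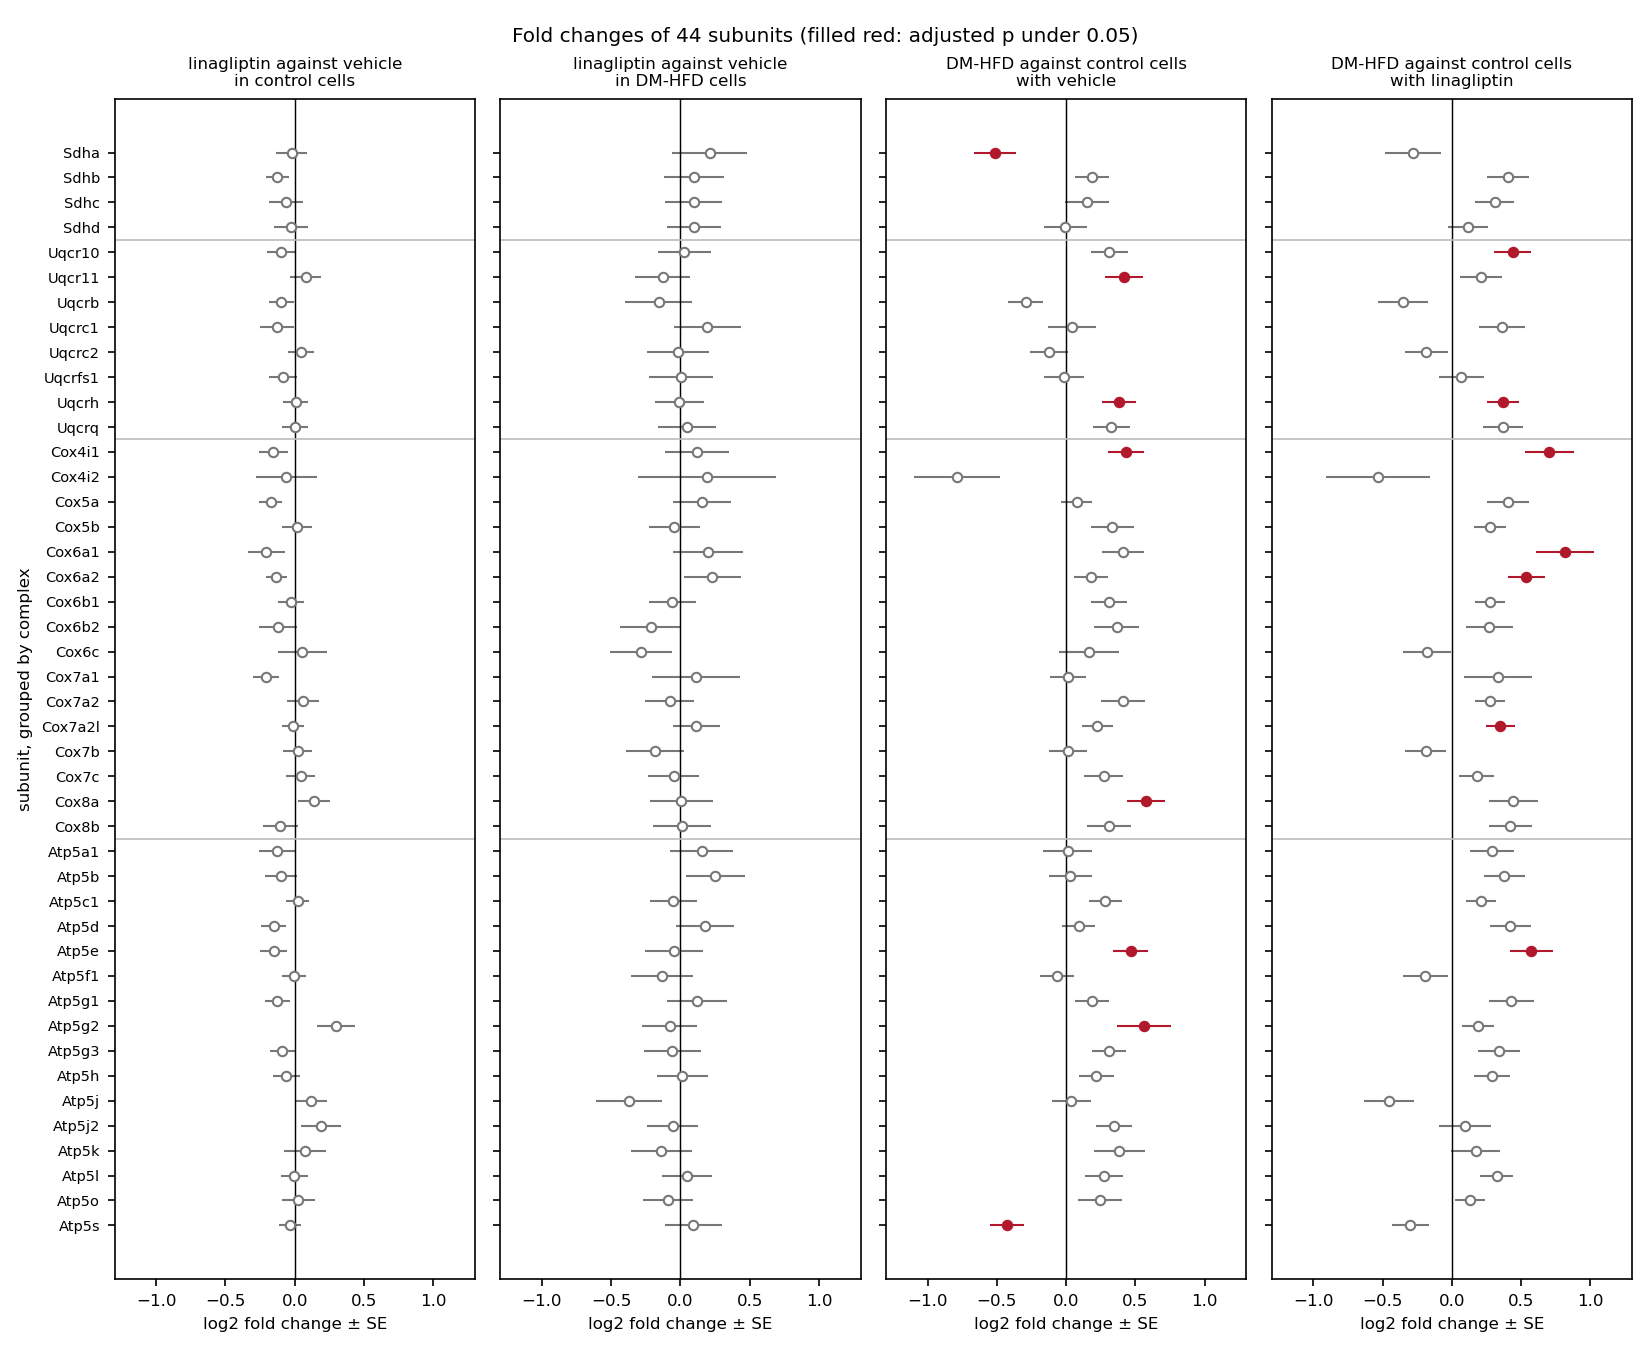
Log2 fold change with its standard error (horizontal bars) of each of the 44 subunits, grouped by complex, in 4 comparisons; filled red points passed an adjusted p of 0.05 in limma. No point is red in the comparisons of linagliptin with vehicle, and 8 and 7 points are red in those of DM-HFD with control cells.

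Linagliptin itself changed none of the 44 subunits past the test in either kind of cell, and as fitted 0 had an unadjusted p under 0.05. Of all genes, 449 of 11365 in control and 125 of 11127 in DM-HFD cells had an unadjusted p under 0.05, and the rebuilt model of Ballgown also called 0 subunits. In control cells 0 subunits passed an adjusted p of 0.05 in limma (0% of genes did) and 0 the thresholds of the study (0.22% of genes). The median log2 fold change was -0.03 against 0.02 for all genes, and 16 of 44 subunits lay above 0. The values lay between -0.21 for Cox7a1, the muscle isoform of subunit 7a, and 0.30 for Atp5g2 (adjusted p = 0.997 for both, limma). Cox7a1 was 714, 732, 559, 620.4 and 764 FPKM with vehicle and 610.2, 583, 532, 587 and 607 with linagliptin, and Atp5g2 was 62.5, 84.4, 56.3, 70.3 and 101 and 91.9, 89.2, 86.5, 89.4 and 95.1, with overlap for both. The next lowest p-values belonged to Cox5a, Atp5d, Cox6a2, Atp5e, Cox6a1 and Cox4i1, with log2 fold changes from -0.21 to -0.13, all below 0. The replicate-level precision in these cells was a standard error of 0.08 for Cox6a2 and 0.14 for Atp5g2.

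In DM-HFD cells, 0 subunits passed an adjusted p of 0.05 in limma (0% of genes did) and 0 the thresholds of the study (0.62% of genes). The median log2 fold change was 0.01 against 0.12 for all genes, and 24 of 44 lay above 0. This depended on scaling: 39 of 44 lay above 0 with TPM (median 0.16), 7 with median-of-ratios factors (median -0.17) and 9 with nuclear genes scaling (median -0.13). The lowest unadjusted p was that of Atp5j, coupling factor 6 of the peripheral stalk, which was 78.5, 80.8 and 81.6 FPKM with vehicle and 86.5, 53.8 and 50.7 with linagliptin (log2 fold change -0.37 with an SE of 0.23, limma adjusted p = 0.9995). Replicate 1 with linagliptin lay above the vehicle libraries and the other two below. Cox6c was 114, 100.2 and 119 and 114, 69.5 and 94.0 FPKM (log2 fold change -0.29) and Atp5b 602, 862 and 714 and 821, 759 and 1003 (log2 fold change 0.25), both with overlap. Cox6a2, Cox6b2, Cox7b, Atp5d and Uqcrc1 followed, at 0.23, -0.21, -0.18, 0.18 and 0.20. The 6 mitochondrially encoded subunits of complexes III to V had a median log2 fold change of -0.58. By the criteria of the study 3 of the 6 were lower, against 17 of all 11127 genes, and 0 passed an adjusted p of 0.05. Standard errors were wider than in control cells, 0.21 for Atp5b against 0.12. The difference between the responses of DM-HFD and control cells passed the test for 0 subunits and for 0% of 11631 genes, of which 549 had an unadjusted p under 0.05 (0 subunits did). It was -0.49 for Atp5j (standard error 0.23), 0.36 for Cox6a2, 0.33 for Cox5a, 0.33 for Atp5d and -0.37 for Atp5g2 (adjusted p = 0.889 for each, limma).

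Isoform ratios compare 2 genes of 1 subunit inside a library and so leave out library scaling, but not trends over length and GC content. In 26 tests of 7 ratios, 0 passed an adjusted p of 0.05 (exact two-sided permutation tests, Benjamini-Hochberg over the 26). With so few libraries no single ratio could pass on its own. Even complete separation of 5 libraries from 5 gave an adjusted p of 0.206 in this test. The count of 0 therefore does not show that the ratios stayed alike. The muscle isoforms Cox6a2, Cox7a1 and Cox8b exceeded their ubiquitous counterparts in all 16 libraries. The ratio of Cox7a1 to Cox7a2 was 2.85, 2.43, 2.74, 2.37 and 2.33 in control vehicle and 2.26, 2.11, 2.06, 2.09 and 2.04 in control linagliptin libraries. The 5 libraries with linagliptin all lay below the 5 with vehicle, a difference of -0.27 in log2 (exact p = 0.00794, the smallest that 5 against 5 allow; adjusted p = 0.206). In DM-HFD vehicle libraries this ratio was 1.96, 2.104 and 1.72, also below every control vehicle library (difference -0.40, exact p = 0.0357, adjusted p = 0.309). In DM-HFD linagliptin libraries it was 1.96, 1.43 and 3.79, the widest spread of the 4 groups.

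The ratio of Cox6a2 to Cox6a1 was 23.7, 19.96, 16.9, 15.66 and 19.8 in control vehicle and 14.4, 18.4 and 15.67 in DM-HFD vehicle libraries. That of Cox8b to Cox8a was 7.85, 6.23, 4.80, 4.68 and 5.75 in control vehicle and 4.51, 4.82 and 5.005 in DM-HFD vehicle libraries. Both ratios overlapped between the groups. The hypoxia-responsive isoform Cox4i2 was listed at 0 in DM-HFD linagliptin replicate 1, so its ratio to Cox4i1 could not be computed there. It was lower in DM-HFD than in control vehicle libraries by a narrow margin, with log2 ratios of at most -8.12 in DM-HFD and at least -8.08 in control libraries (difference -2.21 in log2, exact p = 0.0357, the smallest that 3 against 5 allow; adjusted p = 0.309). Without DM-HFD vehicle replicate 2, where Cox4i2 was 0.147 FPKM, the difference was -1.101. FPKM of Cox4i2 itself overlapped between these groups, whereas Cox4i1 was higher in all DM-HFD vehicle than in all control vehicle libraries. Of the genes of subunit c, Atp5g3 was the highest in all 16 libraries. The ratio of Atp5g2 to Atp5g3 differed by 0.39 in log2 between control linagliptin and vehicle cells (exact p = 0.0476, adjusted p = 0.309), with overlap. Cox6b2 stayed under 0.01 of Cox6b1 throughout.

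**Figure D5:**
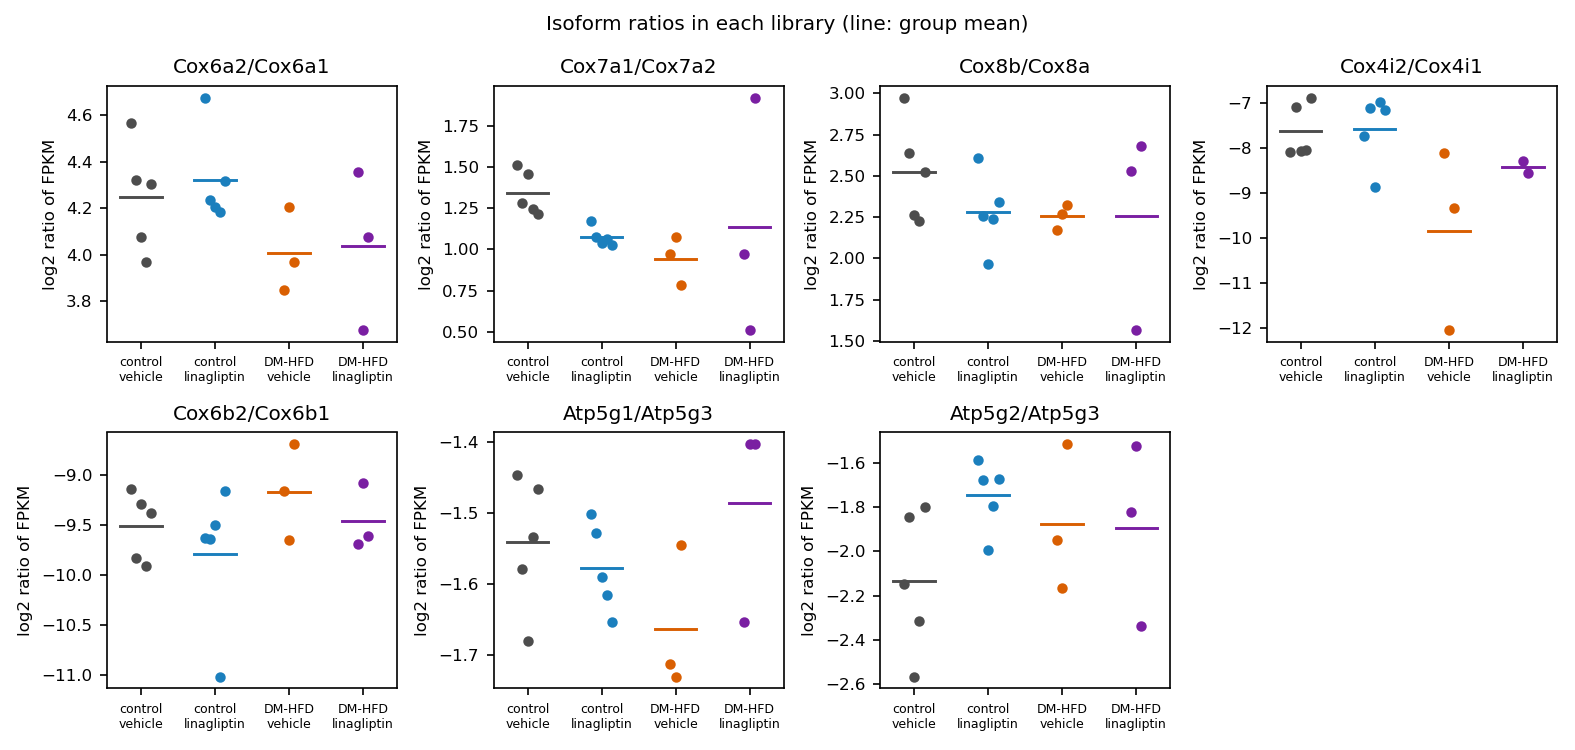
Log2 ratio of FPKM of 2 isoforms in each library (points) with the group mean (line) for 7 pairs; axes do not start at 0, and DM-HFD linagliptin shows 2 libraries for Cox4i2/Cox4i1. Cox7a1/Cox7a2 lies lower in all control linagliptin than in all control vehicle libraries.

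The transcript table listed 94 transcripts of the 44 subunits, more than 1 for 26 of them. Shifts within a gene are described without a test, since they were chosen after the values were seen. Atp5c1 encodes the gamma subunit that turns inside the catalytic head, and its transcript Atp5c1-206 took 0.399% to 6.78% of the summed FPKM of the gene in control vehicle and 0.195% to 2.95% in control linagliptin libraries. In DM-HFD libraries the share was 0.0175% to 0.102% with vehicle and 0.0887% to 0.156% with linagliptin, below all control libraries. For Atp5a1, transcript Atp5a1-202 took 1.71% to 37.9% in control vehicle and 21.8% to 53.1% in DM-HFD vehicle libraries, overlapping. Cox6c-203 took 0.394% to 59.6% of Cox6c in control vehicle libraries, a range that held all control linagliptin and DM-HFD vehicle libraries.

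Other genes of the pathway were counted in DM-HFD vehicle against control vehicle cells, where 2.94% of all genes rose and 28.1% fell, with a median of -0.20. Of 36 nuclear subunits of complex I, 1 rose and 1 fell, with a median log2 fold change of 0.16. Of 6 further subunits and carriers, such as cytochrome c1 (Cyc1) and cytochrome c (Cycs), 0 passed the test (median 0.17). Of the 6 mitochondrially encoded subunits of complexes III to V, 5 rose, with a median of 0.71. Of 37 assembly factors, 2 rose and 4 fell (median -0.06), a smaller share lower than among all genes. Among those that fell, Cox11, which delivers copper to complex IV, was 9.36 ± 1.15 in DM-HFD against 14.4 ± 1.05 FPKM in control cells (limma adjusted p = 0.00411). Tmem70, which assists ATP synthase assembly, was 15.9 ± 2.73 against 44.2 ± 21.5 FPKM (limma adjusted p = 0.0288). Its control vehicle libraries spanned 19.1 to 65.4 FPKM. With linagliptin on both sides Tmem70 went the other way, at 42.1 ± 10.6 FPKM in DM-HFD and 21.5 ± 2.73 in control cells. Of 14 regulators of respiratory genes, 8 fell and 0 rose (median -0.56). These included the coactivator Ppargc1a at 3.20 ± 1.10 against 7.78 ± 2.15 FPKM (limma adjusted p = 0.00447), the mitochondrial transcription factor Tfam at 8.29 ± 1.82 against 13.8 ± 1.82 FPKM (limma adjusted p = 0.00708) and Gabpa, an ETS factor, at 4.96 ± 1.12 against 11.6 ± 1.01 FPKM (limma adjusted p = 0.000595). With linagliptin on both sides, 5 of the 14 fell and 0 rose, against 21.8% and 5.02% of all genes. In that comparison 1 of the 6 mitochondrially encoded subunits of complexes III to V rose, with 3 above and 3 below 0 (median 0.11). The 36 nuclear subunits of complex I had 4 that rose and 0 that fell there (median 0.30), beside a median of -0.06 for all genes. These lists were not matched to all genes by transcript length, which fold changes followed. With vehicle, the median over all genes was -0.37 between 4000 and 6000 bases and -0.52 from 6000 bases. Atp5j overlaps Gabpa on the opposite strand.

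Markers of other cells differed between the same groups, and their part in the results was not tested. Summed FPKM of 8 macrophage and leukocyte markers was 55.9 to 80.1 in control vehicle and 68.9 to 148 in DM-HFD vehicle libraries, and 4 of the 8 rose. With linagliptin it was 57.2 to 72.6 in control and 64.8 to 262 in DM-HFD libraries. Summed FPKM of 10 endothelial markers was 115.9 to 142 and 55.7 to 105.8, and 6 of the 10 fell. The 10 cardiomyocyte markers, with Myh6 and Tnnt2 among them, summed to 10830 to 11950 and 9093 to 12600 FPKM, so they were high in every library. Of the 10, 9 lay below 0 (median log2 fold change -0.45) and 4 fell. Mb had the highest mean of the list, at 3643 ± 263 FPKM in control vehicle and 4104 ± 609 in DM-HFD vehicle libraries. Of 8 smooth muscle and pericyte markers 4 fell (median log2 fold change -0.72), with sums of 61.3 to 85.2 and 33.7 to 90.7 FPKM. Of the 4 red cell markers tested, 3 rose (median 1.47), and the 5 in the table summed to 7.96 to 19.9 FPKM in control vehicle, 19.7 to 84.0 in DM-HFD vehicle and 6.92 to 437 in DM-HFD linagliptin libraries. Of 8 fibroblast markers 1 fell (median 0.02). These calls, all with vehicle, stand beside 2.94% of all genes higher and 28.1% lower. With linagliptin on both sides, 3 macrophage and leukocyte markers and 1 smooth muscle and pericyte marker rose (5.02% of all genes did). There 2 endothelial, 1 cardiomyocyte, 3 smooth muscle and pericyte and 1 fibroblast marker fell (21.8% of all genes did), and 0 red cell markers passed. Endothelial sums then overlapped, at 104 to 177 FPKM in control and 41.7 to 151 in DM-HFD libraries. Of the leukocyte list, Ptprc was not used here. Of the 44 subunits, 10 overlap another protein-coding gene in GENCODE M21, among them, of the called ones, Cox4i1 (Gm20388 on the same strand, Emc8 on the opposite strand) and Cox6a2 (Itgad on the opposite strand), and 4 (Atp5c1, Atp5k, Atp5l and Uqcrh) have pseudogenes named after them, so reads could be shared there.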

How the data were processed

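Poly(A) RNA of cultured mouse cardiomyocytes was sequenced on an Illumina NovaSeq 6000 after stranded library preparation. The authors trimmed reads with cutadapt, checked them with FastQC 0.11.7, aligned them to GRCm38 with HISAT2 2.1.0 and assembled transcripts with StringTie 1.3.3. They deposited FPKM values per gene and per transcript for 16 libraries, from which Ballgown tests had been made. The study gives 1 nominal sequencing depth for its libraries. Read totals per library were not used here, so the depth behind each value is unknown and no counting interval can be given. Whether strand was used in the quantification is not given in the sources used here.

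From the deposited FPKM, log2(FPKM + 1) was tested with limma 3.58.1 in R 4.3.3, without a trend, on the groups compared. Genes entered when their mean reached 0.5 FPKM in either group, and p-values were adjusted by Benjamini-Hochberg over all of them. The difference between responses was fitted on all 16 libraries. A fold change on this scale understates that of low genes. Isoform ratios were compared by exact two-sided permutation tests (python 3.11.15, numpy 2.4.6, scipy 1.17.1, pandas 2.3.3). The fits were tested on simulated data.

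Subunits given with full statistics were those past an adjusted p of 0.05 and, if fewer than 8, those past the criteria of the study (change of 1.5 times, p of 0.05) and then those of lowest p up to 8. Isoform pairs and the 5 subunits of highest FPKM were named too. Members and lists were chosen with earlier results of these data known. Alternatives were other scalings (TPM, median-of-ratios, quantile, nuclear genes only), removal of trends over length and GC content (98.5% of genes had both, and splines had 5 degrees of freedom), a pseudocount of 0.1, no filter, summed transcripts, the model of Ballgown, all libraries in 1 fit, a replicate block and leaving out each library. Trend removal with median-of-ratios scaling was added after seeing the data.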

Additional observations from a re-analysis of the deposited data

Results flagged for a closer look

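In groups of 5 libraries, 104 sets of values were examined for a library far from the other 4 (Dixon's test), and 14 stood out, where chance gives about 1 in 20. Of these, 9 were FPKM values of control linagliptin replicate 3. Its values were 114.4 for Atp5g1, 336.4 for Sdha, 807.6 for Atp5b, 816.9 for Atp5a1, 362.0 for Uqcrc2 and 457.2 for Cox4i1, each the highest of the group. Its values of 83.86 for Cox6c, 542.6 for Cox8b and 175.1 for Uqcrq were each the lowest. In this library the 16 subunits with a main transcript of at least 1000 bases had a median deviation of 0.22 in log2 from the mean of the group, and the 28 shorter ones of -0.05. The same medians were 0.25 and -0.002 in DM-HFD vehicle replicate 2 and 0.17 and -0.05 in control vehicle replicate 4.

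The other libraries that stood out were control vehicle replicate 3 for Cox7a2l (122.9 FPKM), control vehicle replicate 5 for Cox6a2 (1643 FPKM) and control linagliptin replicate 1 for Cox8a (110.0 FPKM). Among log2 isoform ratios, control linagliptin replicate 1 stood out for Cox6a2/Cox6a1 at 4.675 and control linagliptin replicate 4 for Cox6b2/Cox6b1 at -11.02.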

How the results depend on the processing

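Between DM-HFD and control cells with vehicle, 8 subunits were called as fitted, against 4 with TPM, 28 with median-of-ratios scaling, 15 with nuclear genes scaling, 5 without trends over length and GC content, 5 with a pseudocount of 0.1, 4 with summed transcripts, 0 with the model of Ballgown and 2 with trends removed and median-of-ratios scaling. Calls over all genes, higher and lower, were 334 and 3195 as fitted, 121 and 5317 with TPM, 1541 and 1760 with median-of-ratios and 468 and 2953 with nuclear genes scaling, 181 and 2784 without trends, 273 and 3246 with a pseudocount of 0.1, 276 and 2513 with summed transcripts, 1 and 0 with the model of Ballgown, and 549 and 632 with trends removed and median-of-ratios scaling. The median log2 fold change was -0.0365 with TPM, 0.5078 with median-of-ratios scaling, -0.1296 without trends and -0.1603 with the model of Ballgown. With linagliptin, 7 were called as fitted, 7 higher and 0 lower. Counts higher and lower were 1 and 0 with TPM, 22 and 0 with median-of-ratios, 1 and 2 with quantile and 4 and 0 with nuclear genes scaling. They were 0 and 2 without trends, 4 and 0 with a pseudocount of 0.1 and 3 and 0 with summed transcripts. They were 0 and 0 with the model of Ballgown, 14 and 1 with all libraries in 1 fit, and 0 and 0 with trends removed and median-of-ratios scaling. Over all genes these were 580 and 2519 as fitted, 196 and 3151, 1527 and 1941, 1497 and 1588, 379 and 3060, 93 and 996, 425 and 2551, 400 and 1912, 1 and 0, 1122 and 3107, and 188 and 403, in the same order. The median of the subunits was 0.1661 with TPM, 0.4063 with median-of-ratios and 0.0213 with quantile scaling, -0.0549 without trends, 0.116 with the model of Ballgown and 0.0624 with trends removed and median-of-ratios scaling. The median difference in response, 0.062 as fitted, was -0.1015 with median-of-ratios and -0.0851 with nuclear genes scaling. The cause of these shifts was not tested.

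Single log2 fold changes turned to the other sign. With vehicle these were Atp5e (-0.0467), Cox4i1 (-0.0322) and Uqcr11 (-0.0892) without trends, Uqcr11 (-0.1876) and Atp5g2 (-0.0119) with the model of Ballgown, and Atp5s (0.0059) with trends removed and median-of-ratios scaling. With linagliptin they were Uqcr10 (-0.0829) and Atp5d (-0.0567) without trends. For linagliptin against vehicle in DM-HFD cells they were Cox7b (0.031) without trends, Cox7b (0.163) and Cox6c (0.0631) with the model of Ballgown, and Atp5d (-0.073) and Uqcrc1 (-0.057) with trends removed and median-of-ratios scaling. Of the isoform ratios, Atp5g2/Atp5g3 in DM-HFD cells was 0.01727 with summed transcripts, and Cox6b2/Cox6b1 between DM-HFD and control cells with linagliptin was -0.005161 with a pseudocount of 1.

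Leaving out each library gave 2 to 16 called subunits with vehicle (2 without DM-HFD vehicle replicate 3, 16 without control vehicle replicate 5) and 0 to 20 with linagliptin (20 without DM-HFD linagliptin replicate 1). Calls over all genes, higher and lower, were 107 and 2390, 469 and 3177, and 2357 and 3432 in these 3 fits, in the same order. For linagliptin against vehicle in control cells, differences in log2 isoform ratios with each library left out ranged from -0.09127 to 0.3806 (Cox4i2/Cox4i1), -0.01221 to 0.1558 (Cox6a2/Cox6a1) and -0.4404 to 0.02624 (Cox6b2/Cox6b1). In DM-HFD cells they ranged from -0.1312 to 0.2083 (Cox6a2/Cox6a1), -0.2096 to 0.3494 (Cox8b/Cox8a), -0.2052 to 0.203 (Atp5g2/Atp5g3) and -0.2037 to 0.5012 (Cox7a1/Cox7a2). Between DM-HFD and control cells with linagliptin they ranged from -0.2358 to 0.3232 (Cox8b/Cox8a), -0.336 to 0.3689 (Cox7a1/Cox7a2) and -0.3367 to 0.07151 (Atp5g2/Atp5g3).

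Replicate numbers are shared by the vehicle and linagliptin groups, and the sources used here do not say whether they mark pairs. Deviations of same-numbered libraries correlated at 0.50, 0.27, 0.38, -0.31 and 0.37 in control and -0.17, -0.60 and 0.18 in DM-HFD cells. Between libraries of different number, control linagliptin replicate 3 and vehicle replicate 4 correlated at 0.74. The numbers were not taken as pairs, and these values do not settle whether they are. With the replicate block 0 subunits were called in either comparison of linagliptin with vehicle or for the difference in response, with medians of -0.032, 0.0073 and 0.062. Unadjusted p was under 0.05 for 3 subunits in control cells, 0 in DM-HFD cells and 2 for the difference in these fits. FPKM without counts limits what can be said of low values such as those of Cox4i2 and Cox6b2.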
